A study of Rattus norvegicus with 6 samples.

Results

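The genes described here are 10 members of the Notch pathway, chosen by gene symbol, among the 18930 genes of the deposited count table. They are the receptors Notch1, Notch2 and Notch3, the ligands Jag1, Jag2 and Dll1, the transcriptional targets Hes1, Hey1 and Heyl, and the glycosyltransferase Lfng. All 10 were found in the table. RNA was sequenced from wild-type NRK-52E cells, an established epithelial line from rat kidney, in 3 samples of STZ-treated cells and 3 samples of vehicle-treated cells (Control). STZ (streptozotocin), a nitrosourea carried on glucosamine and a DNA alkylating agent, was given at 10 mM for 24 h. Both groups are the same cell line in culture, and the comparison asks how the transcripts of this tubular line differed after the drug.

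Notch receptors span the plasma membrane and are bound by Jagged or Delta-like ligands on a neighbouring cell. Binding exposes the receptor to an ADAM protease and then to γ-secretase, and the freed intracellular domain enters the nucleus, joins the DNA-binding protein RBPJ and a Mastermind coactivator, and turns on genes of the HES and HEY families. Fringe enzymes such as Lfng add sugars to the receptor in the Golgi and thereby shift its response between Delta-like and Jagged ligands. In the kidney, Notch signaling is known for its part in forming proximal nephron segments and for its reactivation in injured tubules.

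The promoters of 4 members are shown because RBPJ, the factor through which the receptors act, binds DNA with the core TGGGAA, and because these genes include the largest rise (Notch3), a fall (Lfng) and the target that defines the pathway (Hes1). The RefSeq promoter table (GRCr8) matched 9 of the 10 members, and the 250 bases before the annotated start were searched on both strands. The core was found in 3 of the 9 members, namely Hes1, Dll1 and Lfng, and in 22.1% of all 33469 promoters of that length. The longer form GTGGGAA, which contains the core, was found in the same 3 members and in 5.27% of all promoters. Capitals mark the core on either strand, and each sequence reads 5′ to 3′ towards the gene. That of Lfng stops at base 217, where another annotated transcript begins.
Hes1 (GRCr8, chr11:84213046-84213295, minus strand): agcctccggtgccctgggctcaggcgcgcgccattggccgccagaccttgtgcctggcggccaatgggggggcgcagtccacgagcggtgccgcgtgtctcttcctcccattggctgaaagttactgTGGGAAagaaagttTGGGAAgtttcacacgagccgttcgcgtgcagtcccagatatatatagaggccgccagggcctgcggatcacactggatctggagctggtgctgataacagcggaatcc
Dll1 (GRCr8, chr1:64993275-64993524, minus strand): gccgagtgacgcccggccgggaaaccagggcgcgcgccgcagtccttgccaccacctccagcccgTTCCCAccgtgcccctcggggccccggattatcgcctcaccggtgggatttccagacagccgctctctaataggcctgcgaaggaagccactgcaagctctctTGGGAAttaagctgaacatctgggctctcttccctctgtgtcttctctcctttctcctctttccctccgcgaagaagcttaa
Lfng (GRCr8, chr12:19152952-19153168, minus strand): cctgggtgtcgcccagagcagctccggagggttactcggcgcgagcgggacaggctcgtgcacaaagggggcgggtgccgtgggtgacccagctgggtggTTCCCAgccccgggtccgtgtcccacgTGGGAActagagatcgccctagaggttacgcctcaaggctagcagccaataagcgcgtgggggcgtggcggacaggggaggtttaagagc
Notch3 (GRCr8, chr7:11834586-11834835, minus strand): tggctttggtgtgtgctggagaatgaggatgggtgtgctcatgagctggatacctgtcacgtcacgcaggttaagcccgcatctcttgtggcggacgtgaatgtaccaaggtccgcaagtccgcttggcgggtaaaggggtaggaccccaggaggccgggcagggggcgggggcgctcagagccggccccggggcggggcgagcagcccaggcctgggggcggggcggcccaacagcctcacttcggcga

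In Hes1 the 2 cores lie on the same strand, start at positions -123 and -109 from the annotated start, and are separated by 8 bases. Such a pair, with starts at most 20 bases apart on a strand, was found in 0.275% of all promoters. That definition takes in the Hes1 pair, so the share is a description and not a test of rarity. In Dll1 and Lfng the 2 cores lie on opposite strands, and no share was taken for pairs of that kind. The window of Notch3 did not hold these letters, which says nothing about sites elsewhere.

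Total counts were between 10430924 and 12737131 in Control and between 11658253 and 15191349 in STZ, and TMM factors were between 0.988 and 1.02. Levels below are in CPM, counts per 1000000 reads after TMM scaling, and values of a group are listed in the order of its replicates 1, 2 and 3. Cdkn1a, the p53 target that encodes p21, was checked as a sign that the drug had acted, and rose from 232 ± 4.19 to 1298 ± 23.0 CPM (SD, n = 3 in each group). Of 12 markers of renal epithelium, 7 had a row and 3 of these had at least 10 counts in every sample. These 3 were tested, and 2 were higher and 1 lower in STZ. Krt8 had 1149 ± 40.7 CPM in Control and 1604 ± 8.05 in STZ (SD, n = 3), whereas Cdh1, which encodes E-cadherin, had 2.58 ± 0.524 and 1.64 ± 0.553 CPM (SD, n = 3; log2 fold change -0.69, edgeR adjusted p = 0.03), with groups that overlapped and a call that was lost in 5 of 14 alternatives. Krt18 had 0 to 3 reads. Of 8 proximal tubule markers, 7 had a row and 2 reached at least 10 counts in every sample. Of these 2, Aqp1 fell from 13.1 ± 3.68 to 5.43 ± 0.663 CPM (SD, n = 3; log2 fold change -1.25, edgeR adjusted p = 9.4e-09), and Ggt1 rose from 45.1 ± 2.69 to 75.1 ± 6.72 CPM (SD, n = 3; log2 fold change 0.73, edgeR adjusted p = 1.9e-13). Lrp2, Slc34a1 and Slc2a2 had 0 to 4 reads, so the tubular label rests on few of its defining genes. The 3 distal nephron markers with a row summed to at most 0.727 CPM, the 4 endothelial ones to at most 1.13, the 5 immune ones to at most 2.69 and the 3 podocyte ones to at most 2.87. The 5 fibroblast and mural cell markers with a row summed to between 153 and 160.0 CPM in Control and between 100.2 and 114 in STZ. The 4 of them that were tested were all lower, as were 25.1% of all genes tested, and the groups of Col1a1 overlapped. In bulk RNA of a single line, fewer cells with a transcript and less of it per cell cannot be told apart.

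Of the 10 genes, 8 had enough reads to be tested and 2, Jag2 and Heyl, did not. At a Benjamini-Hochberg adjusted p-value under 0.05, from the quasi-likelihood test of edgeR over 11870 genes, 4 of the 8 were higher in STZ-treated cells, namely Notch1, Notch3, Dll1 and Hes1, and 2 were lower, namely Notch2 and Lfng. Among all genes tested, 25.9% were higher and 25.1% lower at that threshold. Jag1 and Hey1 did not pass it. With the study's second condition, an absolute log2 fold change over 1, only Notch3 of the 8 was differentially expressed (Hey1 joined it when Control replicate 2 was left out), and 2.26% of all genes tested passed both conditions as higher. The median log2 fold change of the 8 genes was 0.32, and that of all genes tested was -0.01. The 6 genes past the adjusted threshold were those whose groups did not overlap, which held for 56.3% of all genes tested.

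**Figure D1:**
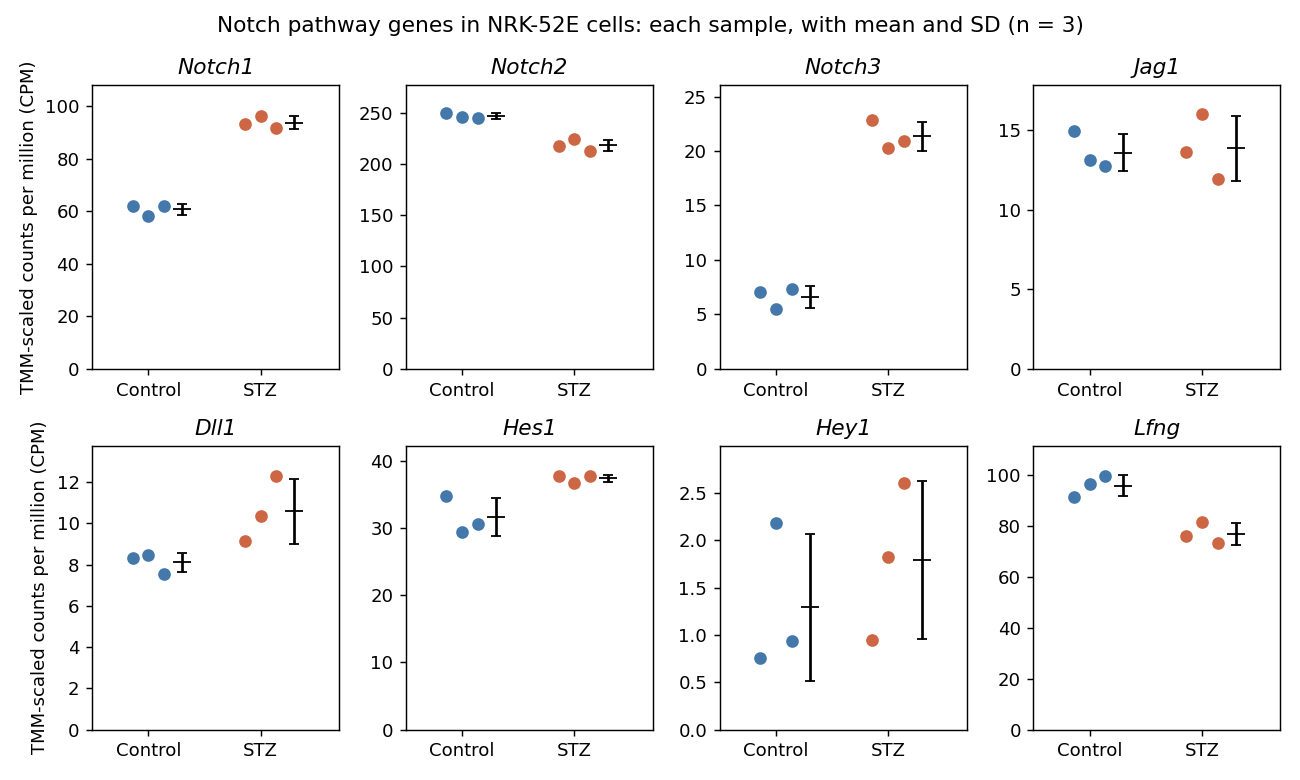
TMM-scaled CPM (vertical axis, linear, from 0) of the 8 tested Notch genes in each Control (blue) and STZ (orange) sample, with the mean and SD of 3 samples beside the points. Notch1 and Notch3 lie well above Control in all STZ samples, Notch2 and Lfng lie below it, and the groups overlap in Jag1 and Hey1.

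Notch3, the receptor best known from vascular mural cells, had the largest change of the 8 genes tested. It had 7.07, 5.46 and 7.33 CPM in the Control samples, from 75, 60 and 94 reads. In the STZ samples it had 22.8, 20.2 and 21.0 CPM, from 314, 233 and 314 reads. Every STZ sample was above every Control sample, and the gap between the groups was wider than the range within either. The mean rose from 6.62 ± 1.02 to 21.3 ± 1.33 CPM (SD, n = 3), a 3.21-fold change with a 95% interval from 2.74 to 3.77. The log2 fold change was 1.68 (standard error 0.11, edgeR adjusted p = 2.3e-16), which ranked Notch3 at place 81 of the 11870 genes ordered from the largest rise. In this same line, the 4 fibroblast and mural markers tested were lower in STZ. Among them, Col3a1 fell from 53.9 ± 6.50 to 21.3 ± 2.31 CPM and Pdgfrb from 19.6 ± 1.54 to 15.6 ± 0.867 (SD, n = 3). The part of these markers in the change of Notch3 was not tested.

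Notch1, the receptor whose cleaved domain is the usual measure of pathway activity, also rose. It had 61.8, 58.2 and 62.2 CPM in the Control samples and 93.0, 96.4 and 91.5 in the STZ samples. The replicates of each group lay close together, with coefficients of variation of 3.62% in Control and 2.63% in STZ, and the groups were far apart. The fold change was 1.54 with a 95% interval from 1.43 to 1.65, and the log2 fold change was 0.62 (standard error 0.05, edgeR adjusted p = 8e-14).

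Notch2, the receptor needed for proximal nephron formation, fell slightly. It had 249.9, 246 and 244 CPM in the Control samples and 218, 224 and 213 in the STZ samples. The groups did not overlap, although the difference was small. The fold change was 0.884 with a 95% interval from 0.837 to 0.933, and the log2 fold change was -0.18 (standard error 0.04, edgeR adjusted p = 0.00017).

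The 3 receptors did not all change in the same direction. Ratios of raw reads within a library do not depend on the scaling between libraries, and 3 of them were taken after the values had been seen. Notch3 had 11.4, 9.38 and 11.8 reads per 100 Notch1 reads in Control and 24.5, 21.0 and 22.9 in STZ. Notch2 had 404, 422 and 393 reads per 100 Notch1 reads in Control and 234, 232 and 232 in STZ. Lfng had 148, 166 and 160.2 reads per 100 Notch1 reads in Control and 81.7, 84.6 and 79.9 in STZ. These ratios are not corrected for transcript length, so their change and not their size is of use. All 3 share the reads of Notch1, which itself rose 1.54-fold, so they are not independent. The falls of the Notch2 and Lfng ratios include that rise, since these genes had log2 fold changes of -0.18 and -0.32. In each of the 3 ratios the groups did not overlap, and the exact two-sided permutation p was 0.1 (also 0.1 after Benjamini-Hochberg adjustment over the 3), the smallest that 3 samples against 3 allow.

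**Figure D2:**
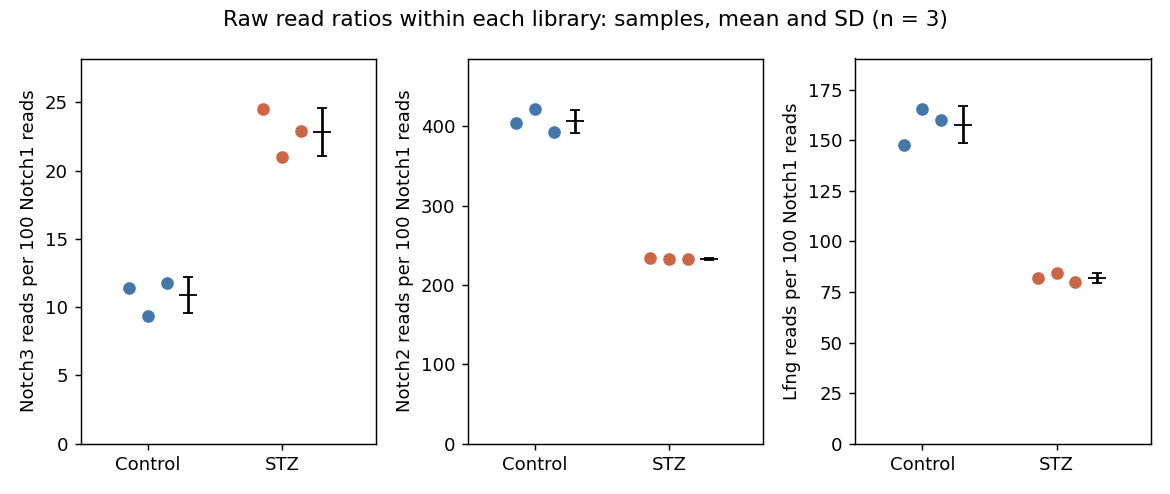
Raw reads of Notch3, Notch2 and Lfng per 100 Notch1 reads (vertical axes, linear, from 0) in each Control (blue) and STZ (orange) library, with the mean and SD of 3. The ratio of Notch3 rises from 10.9 ± 1.31 to 22.8 ± 1.76. That of Notch2 falls from 407 ± 14.6 to 233 ± 0.797 and that of Lfng from 158 ± 9.27 to 82.1 ± 2.37. The shared denominator, Notch1, itself rose.

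Among the ligands, Dll1, a Delta-like ligand, was the only member called. It had 8.30, 8.46 and 7.56 CPM in the Control samples and 9.16, 10.3 and 12.3 in the STZ samples. The groups did not overlap, but the STZ samples were spread and the lowest lay near the highest Control sample. The log2 fold change was 0.40 (standard error 0.13, edgeR adjusted p = 0.0098). Without STZ replicate 3, the highest sample, it was 0.27 and no longer past the threshold (edgeR adjusted p = 0.13), while over the 14 alternatives the adjusted p lay between 0.0032 and 0.13. In the GRCr8 annotation the span of Dll1 overlaps Fam120b, and reads of the pair may not be fully separated, since it is not known whether the counting used strand.

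Jag1, a Jagged ligand often studied in tubular injury, did not pass the test. It had 14.9, 13.1 and 12.7 CPM in the Control samples and 13.6, 16.0 and 11.9 in the STZ samples. The STZ samples included both the highest and the lowest value of the 6. The log2 fold change was 0.02 with a 95% interval from -0.20 to 0.24 (edgeR adjusted p = 0.9), and its sign turned under 4 of the 14 alternatives. Jag2, the other Jagged ligand, had 0, 0 and 3 reads in Control and 4, 0 and 4 in STZ. A library with 0 reads allows up to 3 counts, which is between 0.200 and 0.283 CPM at these depths and covers counting error only, so no change in Jag2 was detectable.

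Hes1, a basic helix-loop-helix repressor and the most widely used target of Notch, rose modestly. It had 34.8, 29.5 and 30.6 CPM in the Control samples and 37.7, 36.8 and 37.7 in the STZ samples. The STZ samples were tightly grouped, all above Control replicate 1, which stood apart from the other Control samples. The fold change was 1.19 with a 95% interval from 1.08 to 1.31, and the log2 fold change was 0.25 (standard error 0.07, edgeR adjusted p = 0.0029).

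Hey1, a repressor of the related HEY family, was close to the lower limit of detection. It had 8, 24 and 12 reads in the Control samples (0.754, 2.18 and 0.936 CPM) and 13, 21 and 39 in the STZ samples (0.945, 1.82 and 2.60 CPM). The groups overlapped, with coefficients of variation of 60.2% in Control and 46.3% in STZ. The log2 fold change was 0.50 with a 95% interval from -0.20 to 1.19 (edgeR adjusted p = 0.23). Control replicate 2 held the most Control reads, 24, and without it the log2 fold change was 1.07 and passed both thresholds (edgeR adjusted p = 0.035), while over its 13 alternatives the adjusted p lay between 0.035 and 0.9. Heyl, a further HEY gene, had 1 read in STZ replicate 2 and 0 reads in each other sample, and was not detectable in either group at this depth.

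Lfng, the Fringe enzyme that elongates O-fucose on the receptor, fell. It had 91.3, 96.4 and 99.6 CPM in the Control samples and 76.0, 81.5 and 73.1 in the STZ samples. All STZ samples were below all Control samples. The fold change was 0.800 with a 95% interval from 0.745 to 0.859, and the log2 fold change was -0.32 (standard error 0.05, edgeR adjusted p = 9.7e-07).

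Beside the promoters shown, the core TGGGAA was thus present in Hes1 and Dll1, which rose, and in Lfng, which fell, and was not found in the windows of Notch3 and Notch1, which rose, or of Notch2, which fell.

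**Figure D3:**
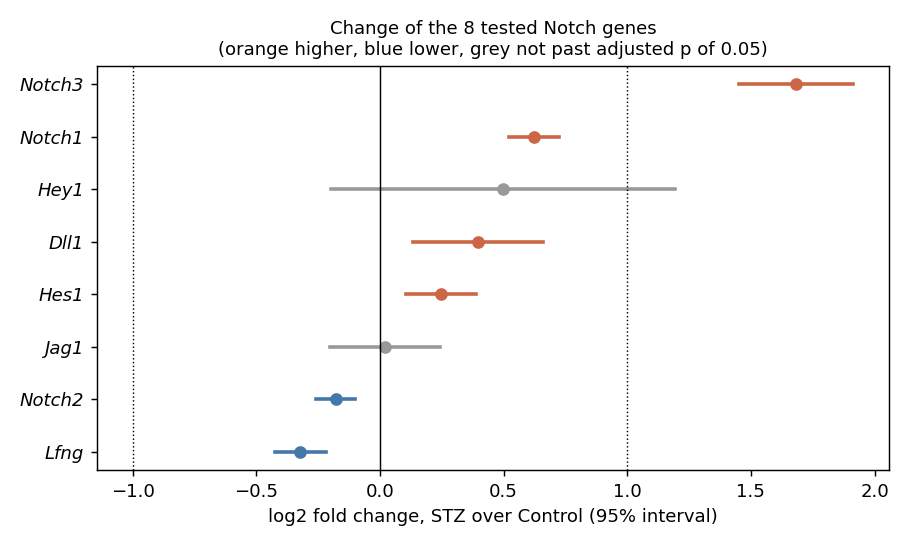
Log2 fold change of STZ over Control (horizontal axis) of the 8 tested Notch genes, with 95% intervals from edgeR; dotted lines mark an absolute log2 fold change of 1. Notch3 at 1.68 is the only gene past the dotted line, and the interval of Hey1, from -0.20 to 1.19, is the widest.

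The other genes of the pathway were described from 8 lists by role, which held 66 genes, of which 61 had a row and 50 were tested. Of the 50, 17 were higher, 14 were lower and 19 did not pass an adjusted p-value under 0.05 (the same edgeR test), with a median log2 fold change of -0.01. Shares of all genes called in each direction are given above (25.9% and 25.1%). Only Tle2 passed both thresholds. Genes of these lists with few reads or without a call are named after their values were seen.

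Of the other receptors and ligands, Notch4 was tested and had a log2 fold change of -0.02 (edgeR adjusted p = 0.96). Dll3 and Dll4 had 0 to 4 reads and 0 to 1 reads per sample. The enzymes that prepare the receptor changed in both directions. Pofut1, which adds the O-fucose that Lfng elongates, fell from 139 ± 8.26 to 108 ± 2.87 CPM (SD, n = 3; log2 fold change -0.36, edgeR adjusted p = 1.3e-08). Poglut1, which adds O-glucose, rose with a log2 fold change of 0.17 (edgeR adjusted p = 0.00056). Of the 3 glycosylation genes tested, 1 was higher and 2 were lower, and the Fringe gene Mfng, with 0 to 3 reads, was not tested. The E3 ligases that trigger ligand endocytosis changed little. Mib1 had a log2 fold change of -0.16 (edgeR adjusted p = 0.014) and Mib2 of 0.20 (edgeR adjusted p = 0.017). Over the 14 alternatives, Mib1 lost its call in 2 fits that left out a sample, and Mib2 in 3 such fits and with DESeq2.

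The receptor proteases were higher in 4 and lower in 3 of 8 genes tested. Furin, which cuts the receptor during its maturation, fell from 757 ± 32.6 to 630.2 ± 17.4 CPM (SD, n = 3; log2 fold change -0.27, edgeR adjusted p = 7e-08). Adam17, a sheddase, rose from 136 ± 2.85 to 173 ± 5.12 CPM (SD, n = 3; log2 fold change 0.35, edgeR adjusted p = 3.5e-09). Adam10, the main sheddase of ligand-bound Notch, was named after its values were seen and had a log2 fold change of -0.21 (edgeR adjusted p = 3.2e-05), the opposite direction to Adam17. Some γ-secretase subunit genes were likewise chosen after their values were seen. Psenen rose by 0.43 on the log2 scale, Ncstn by 0.22 and Aph1a by 0.17, whereas Psen2 fell by 0.34.

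In the nuclear activation complex, 3 of the 8 genes tested were lower and 0 were higher by edgeR, beside 25.1% and 25.9% of all genes tested. With libraries scaled by total count only, 4 were lower, Kat2b being the added gene. At an unadjusted p under 0.05 the number higher was also 0, as it was at an adjusted p under 0.05 with DESeq2 and limma-voom. Kat2a, a histone acetyltransferase, fell from 69.1 ± 2.40 to 47.7 ± 1.34 CPM (SD, n = 3; log2 fold change -0.53, edgeR adjusted p = 7e-11). Rbpj itself, named after its values were seen, fell by 0.19 on the log2 scale (edgeR adjusted p = 0.00086). The Mastermind genes Maml1, Maml2 and Maml3 had log2 fold changes of -0.10, 0.06 and -0.22 and did not pass the threshold, although Maml1 passed it as lower without Control replicate 2 (-0.16, edgeR adjusted p = 0.046) and Maml3 without Control replicate 3 (-0.34, edgeR adjusted p = 0.043).

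Corepressors were higher in 4 and lower in 4 of 13 genes, and in 2 and 5 when libraries were scaled by total count only. Tle2, a Groucho-family corepressor recruited by HES proteins, had 61, 60 and 69 reads in Control and 31, 37 and 35 in STZ. All STZ samples were below all Control samples, with a log2 fold change of -1.10 (standard error 0.19, edgeR adjusted p = 6.6e-06). The other Groucho-family genes tested, named after their values were seen, did not all share this fall. Tle1 was lower, Tle3 was not called and Tle4 was higher, a call that Tle4 lost with upper quartile scaling and with library size only. Ctbp1 had the smallest p among those that fell (log2 fold change -0.34, edgeR adjusted p = 2.2e-09). Kdm5a, a histone demethylase that partners RBPJ, had the smallest among those that rose (0.20, edgeR adjusted p = 0.00013).

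On the list of negative regulators and turnover genes, 6 of 10 tested were higher and 1 lower, beside 25.9% and 25.1% of all genes tested. The 6, named after their values were seen apart from Fbxw7, were Numb, Numbl, Fbxw7, Dtx3, Dtx3l and Aak1. Not all of them are established inhibitors of Notch, so the count is not one of inhibitors. Fbxw7, the F-box protein that marks the Notch intracellular domain for degradation, had 115, 97 and 145 reads in Control and 228, 197 and 255 in STZ. The groups were well separated, with a log2 fold change of 0.71 (standard error 0.11, edgeR adjusted p = 4.5e-07). Nedd4, a ubiquitin ligase, was the gene that fell, by 0.15 on the log2 scale (edgeR adjusted p = 0.00021). Nrarp, a feedback inhibitor induced by Notch, had 2 reads in Control replicate 1 and 0 in each other sample.

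Of the list of other HES and HEY genes, 3 were tested, namely Hes6, Hes7 and Bhlhe40, and 1 was called. Bhlhe40 belongs to neither family, and no HEY gene of this list was tested. Hes6, a HES relative known to oppose Hes1, rose from 48.1 ± 3.71 to 70.2 ± 4.33 CPM (SD, n = 3; log2 fold change 0.54, edgeR adjusted p = 3.8e-10). Hes5, the target used beside Hes1 in many tissues, had 1 read in Control replicate 2 and 0 in each other sample, and Hey2 had 1 to 11 reads per sample.

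**Figure D4:**
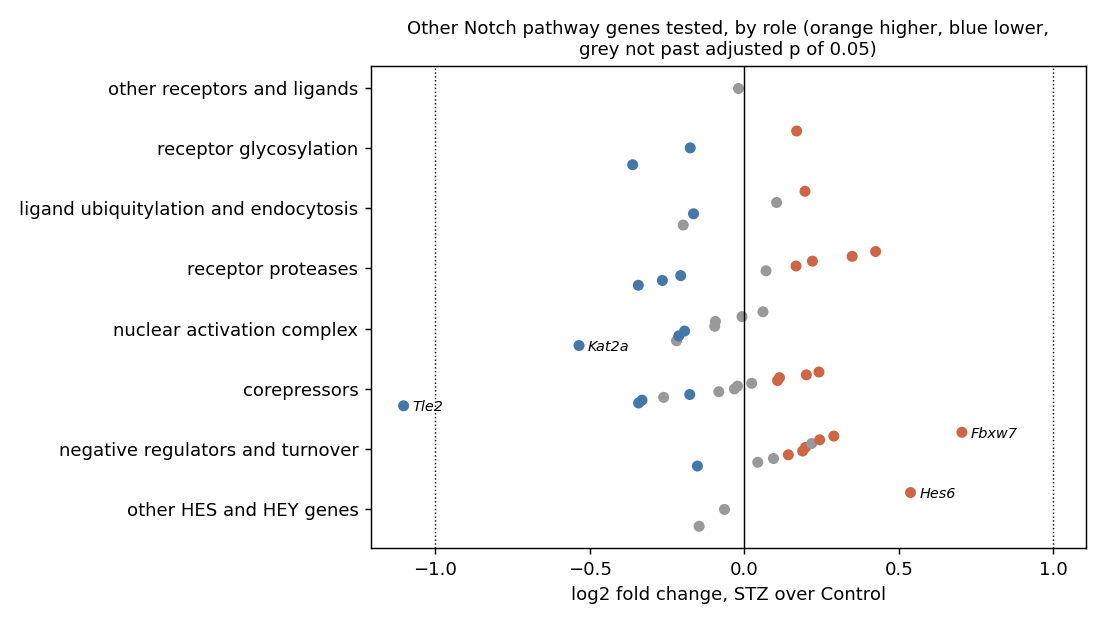
Log2 fold change of STZ over Control (horizontal axis) of the 50 other Notch pathway genes tested, 1 point a gene, in rows by role; orange marks genes higher, blue lower and grey not past an adjusted p-value of 0.05. Points lie on both sides of 0 in most rows, and Tle2 at -1.10 is the only one beyond a dotted line.

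The genes nearest in profile were found by Euclidean distance between log2 CPM over the 6 samples, each centred on its own mean, a description that mostly repeats the size of the group difference. For Notch1 they were Hip1r, Cep170b and RT1-DMa, at distances of 0.06, 0.07 and 0.07, with log2 fold changes of 0.60, 0.58 and 0.65. For Hes1 they were Rabgap1, Glis3 and Rasal2, at distances of 0.05, 0.06 and 0.07, with log2 fold changes of 0.23, 0.26 and 0.26.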

How the data were processed

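RNA of NRK-52E cells was sequenced in 3 Control and 3 STZ samples. The authors deposited 1 table of raw counts per gene with a column for each sample. It came from featureCounts, which was run on STAR 2.7.10a alignments (assembly Rnor6) and took only reads with a single placement. The strand setting of the counting was not given in the sources used here. From the counts, edgeR 4.0.16 (R 4.3.3) gave the filter on low counts (filterByExpr), the TMM scaling, the quasi-likelihood test and its standard errors (log2 fold change over the root of F), adjusted by Benjamini-Hochberg across the 11870 genes. Calls used the study's thresholds. The steps were tested on simulated data.

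The members and all lists were chosen with earlier results of these data known. Besides the 10 members, the genes named are, from each of 8 other lists of Notch pathway genes, 1 gene per direction (that of lowest p) and any gene past both thresholds, the 3 genes with the nearest profile to Notch1 and to Hes1, and Cdkn1a. Markers are named as defining their list, and any further gene is said to have been picked with its values in view. Cell types were checked against 7 marker lists.

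The alternatives were 2 other filters, 3 other scalings, DESeq2 1.42.0, limma-voom (limma 3.58.1), a block on replicate number and the omission of each of the 6 samples. No table of transcript lengths was used, so levels are not compared between genes. Promoter sequences are RefSeq's, on GRCr8, and no coordinates were converted. Whether replicates were separate cultures is not stated, so p-values measure the spread between these samples. Beyond counting error that spread was narrow, with a common coefficient of variation of 3.25% over all genes in the edgeR fit. The calls of small changes rest on it. Observed coefficients of variation of single genes include counting error, and in Control they were 1.16% for Notch2, 15.3% for Notch3 and 60.2% for Hey1.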

Additional observations from a re-analysis of the deposited data

How the results depend on the processing

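The number of members higher (4) and lower (2) was the same under all 8 alternatives that kept every sample, and with a sample left out it was 3 to 5 higher and 2 lower. The number past both thresholds, 1, was 1 to 2 with a sample left out, the added gene being Hey1 without Control replicate 2. Log2 fold changes with a sample left out were -0.084 to 0.123 for Jag1, 0.27 to 0.50 for Dll1 and 0.079 to 1.07 for Hey1. Jag1 also had a log2 fold change of -0.013 with library size only, and -0.0027, -0.029 and -0.084 without Control replicate 2, Control replicate 3 and STZ replicate 2. Hey1 could not be tested with at least 10 counts in every sample. The number of all genes differentially expressed was 400, with 585 when no filter on low counts was used and 249 with at least 10 counts in every sample, which tested 11297 genes. Over 14 alternatives each, run after seeing the data, the 36 other genes printed with a fold change kept their direction in 502 of 504 values, the exceptions being Notch4 without Control replicate 1 (0.087) and without STZ replicate 1 (0.11), over a range of -0.14 to 0.11 with a sample left out. Direction and side of the threshold were both kept in 488, the further exceptions being Mib1, Mib2, Maml1, Maml3, Cdh1 and Rasal2. With the replicate number as a block (replicate block), 4 members were higher, 2 lower and 398 genes were differentially expressed. Deviations from the group means correlated at 0.05, -0.04 and 0.07 between samples of the same number, and not every sample correlated best with its own number. These values showed no strong pairing by number, and with 3 samples a group a weak one could go unseen. Jag2 and Heyl had too few reads to be tested, and Hey1 had 8 to 39 reads per sample.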
